A study of Homo sapiens with 9 samples.

Results

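LP1 is a human cell line from a plasma cell myeloma. Its array was compared with the mean of the L363 array and the array labelled U266, which carry the same cell type label, so 3 of the 9 Affymetrix human arrays of the series entered the difference. L363 comes from a plasma cell leukaemia and U266 from a myeloma. The other 6 arrays were 2 each of untreated SU-DHL6, Namalwa and SU-DHL4 cells, which the labels describe as B-cell lymphoma cells. No treatment or genetic change is given for the myeloma lines, all lines were grown in RPMI medium with serum, and each myeloma line stands for 1 patient's tumour and has 1 array. A difference is LP1 minus the mean of the other 2 myeloma arrays in log2 units, so 1 is a 2-fold and 2 a 4-fold difference. The comparison covered all 22215 probe sets that are not controls, and the probe sets with a usable symbol covered 11963 genes.

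The array labelled U266 did not show what that line is known for. U266 is described as a line with a rearranged CCND1 gene (cyclin D1) and its own IL6 (interleukin 6). The CCND1 probe sets read 6.02 and 4.93 on it, 6.19 and 4.89 in L363, and 5.98 and 4.76 in LP1, against 5.71 to 6.11 and 4.65 to 4.89 over the 6 B-cell arrays. IL6 read 5.14 on it, 5.14 in L363 and 5.11 in LP1, and 5.02 to 5.35 in the B-cell arrays. The array also lay close to L363, since the log2 differences between them had a standard deviation of 0.32 over all probe sets. LP1 stood at 0.55 from each of these 2 arrays, and duplicate B-cell arrays at 0.22 for Namalwa, 0.24 for SU-DHL4 and 0.35 for SU-DHL6. A named gene's call that was lost against 1 of the 2 reference arrays is marked as such.

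The duplicate B-cell arrays set the noise level. limma was fitted to all 9 arrays, and the spread came from the 3 pairs of duplicates with 3 residual degrees of freedom, so the single myeloma arrays were assumed to vary as those duplicates do. Nothing in the labels says that duplicates came from separate cultures, and the p-values may therefore measure technical spread only. A call required both a difference of at least 1 in size and an adjusted p (Benjamini-Hochberg) under 0.05. LP1 had 644 probe sets called higher (2.9%) and 362 called lower (1.63%), 1006 in all (4.53%). By size alone, 1242 probe sets (5.59%) differed by at least 1 and 236 (1.06%) by at least 2. The same counts were 424 (1.91%) and 57 (0.257%) for L363 against the other 2 myeloma arrays, 495 (2.23%) and 64 (0.288%) for the array labelled U266, and 275 (1.24%) and 40 (0.18%) between those 2 arrays. Between duplicates they were 73 (0.329%) and 1 (0.0045%) for Namalwa, 67 (0.302%) and 2 (0.009%) for SU-DHL4, and 423 (1.9%) and 35 (0.158%) for SU-DHL6. L363 against the rest thus gave about as many 2-fold differences as the SU-DHL6 duplicates. LP1 was the most distant of the myeloma arrays by these counts, and its share of differences of at least 2 exceeded that of every duplicate pair.

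**Figure D1:**
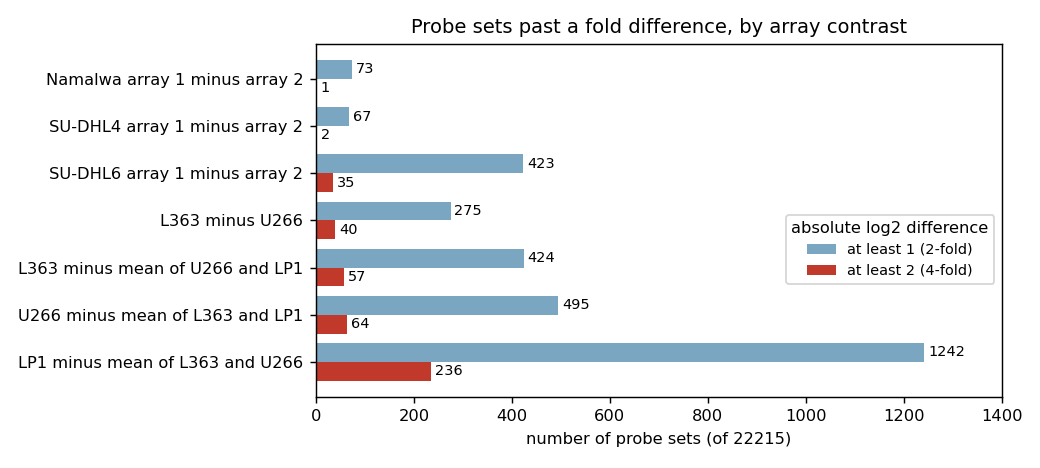
Number of probe sets (horizontal axis) that differ by at least 1 and by at least 2 log2 units, with a pair of bars for each comparison of myeloma arrays and each pair of duplicate B-cell arrays; U266 stands for the array labelled U266. LP1 against the other myeloma arrays has 1242 and 236 such probe sets, and the widest duplicate pair, SU-DHL6, has 423 and 35.

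Plasma cells are the antibody-secreting end stage of the B lineage. They switch off B-cell genes such as PAX5 and MS4A1 and rely on the factors IRF4, PRDM1 and XBP1. In myeloma, translocations into the immunoglobulin heavy chain locus place an oncogene under its enhancers: FGFR3, a fibroblast growth factor receptor, with NSD2, a histone methyltransferase, in t(4;14), or MAF, a basic leucine zipper factor, in t(14;16). LP1 is known as a t(4;14) line.

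The plasma cell label held for all 3 lines. Over 6 plasma cell markers the mean level was 10.31 in LP1, 10.64 in L363 and 10.17 in the array labelled U266, against 6.85 to 7.92 over the B-cell arrays, and LP1 exceeded the B-cell range at 6 of 6. Over 6 measured B-cell markers the mean level was 6.72, 7.08 and 6.66, against 10.53 to 11.05, and LP1 lay below the B-cell range at 6 of 6. In a longer list of 18 measured B-cell identity genes, 1 was called higher (BACH2) and 1 lower (CD37), 11.1% called. BACH2 read 7.55 in LP1, 5.43 in L363, 5.29 in the array labelled U266 and 7.54 to 11.18 in the B-cell arrays. Its call was lost against either reference array alone and without a Namalwa or a SU-DHL4 array. The CD37 call was lost against L363 alone and without a SU-DHL4 array. Markers of T and NK cells, myeloid, erythroid and platelet, epithelial, fibroblast and endothelial cells gave 0 calls between LP1 and the other 2 arrays. In a longer list of 19 measured myeloid genes, 2 were called lower (CEBPA and CST3), 10.5% against 5.05% of all genes called. Their part in other results was not tested. IRF4 (differences of 0.82, 0.88 and 0.19 at its 3 probe sets), PRDM1 (0.54), XBP1 (0.23), TNFRSF17 (-0.17) and SLAMF7 (0.01) were not called either. The remaining plasma cell marker, SDC1, was called lower in LP1 (-1.98 and -1.73 at its 2 probe sets). RNA came from whole cultures, so fewer cells expressing a gene and less RNA per cell cannot be told apart.

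MAF was among the genes that set LP1 furthest apart. Probe set 206363_at read 9.23 in LP1, 5.29 in L363 and 5.30 in the array labelled U266, and 5.10 to 5.2 in the B-cell arrays (median 5.13), a difference of 3.93 (SE 0.11, adjusted p = 0.000127). LP1 alone was high, and the other 8 arrays lay together. A second probe set, 209348_s_at, gave 3.66 (SE 0.12, adjusted p = 0.00015), and the last, 209347_s_at, gave 0.95 and missed the 2-fold minimum. FGFR3 read 8.48 in LP1, 6.32 in L363 and 6.34 in the array labelled U266 at 204379_s_at, with a B-cell range of 5.93 to 6.19 (difference 2.15, SE 0.10, adjusted p = 0.000562). Its second probe set, 204380_s_at, read 5.94, 5.72 and 5.61 and was not called (0.28, adjusted p = 0.55). NSD2, the other t(4;14) gene, was called at 1 of 3 probe sets: 209053_s_at read 9.89 in LP1 against 8.62 and 8.89 (difference 1.13, SE 0.13, adjusted p = 0.00775), just above the B-cell range of 9.29 to 9.79, with both reference arrays below it. The other NSD2 probe sets gave 0.98 and 0.64, and LP1 lay inside the B-cell range at both. It read 9.27 where the range was 8.29 to 9.30, and 9.18 where it was 9.14 to 9.42. The NSD2 call was lost against the array labelled U266 alone. MAF, FGFR3 and NSD2 were the 3 called of 10 measured translocation genes, all higher. With 1 probe set per gene, 3% of all genes were called higher and 2.05% lower. MAF and FGFR3 are markers named in advance for LP1, and all gene lists were written with earlier results of these data known. The share is therefore partly built in and gives no support of its own. The same holds for the other lists, including those with the markers CD38 and PLS3. CCND2, the D cyclin that many myelomas without a CCND1 rearrangement express, was high in all 3 lines (200952_s_at read 8.81 in LP1, 8.13 in L363, 8.87 in the array labelled U266 and 5.69 to 5.91 in the B-cell arrays) and was not called.

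Genes described as MAF targets were mixed. Of 11 measured, 3 were called higher and 0 lower (27.3% called against 5.05% of all genes), with a median of 0.03 against -0.06 over all genes. AHNAK, a large scaffold protein, read 11.65 in LP1, 8.95 in L363 and 8.67 in the array labelled U266 (difference 2.84, SE 0.15). ITGB7, the beta chain of the gut-homing integrin, read 11.47, 10.54 and 8.48, so LP1 was separated mainly from the array labelled U266, and the call was lost against L363 alone and without a SU-DHL4 array. The chemokine receptor CX3CR1 read 7.57, 6.33 and 6.24 (1.29, SE 0.12).

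CD38 and PLS3 moved in opposite directions. CD38, an ectoenzyme of the plasma cell surface, read 11.05 in LP1, 8.25 in L363 and 8.14 in the array labelled U266 (difference 2.85, SE 0.24, adjusted p = 0.00273). The B-cell arrays read 9.71 to 10.93, so LP1 lay just above them and the other 2 myeloma lines below. PLS3, an actin-bundling plastin that blood cells do not normally use, read 7.29 in LP1, 10.38 in L363 and 10.26 in the array labelled U266 (difference -3.03, SE 0.12, adjusted p = 0.000237). LP1 was intermediate here, since the B-cell arrays read 4.20 to 4.39. LCP1, the leukocyte plastin, read 7.62 in LP1, 9.04 in L363 and 10.94 in the array labelled U266, all below the B-cell range of 11.98 to 12.59 (difference -2.37, SE 0.18, adjusted p = 0.00231).

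At least 2 probe sets agreed on a 2-fold difference, with none opposed, in 149 of the 4310 genes that have several: 106 were higher in LP1 and 43 lower. In another 202 genes only 1 of several probe sets passed 2-fold, and 362 genes had a single probe set that did. HLA-DQA1 was the 1 gene with probe sets opposed. The 15 genes per direction with the largest second-best difference, and the 8 largest per direction with a single probe set, are described next.

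A growth factor gene and cytokine receptor genes were among those higher in LP1. HGF, a growth factor that myeloma cells can secrete, read 7.02 in LP1, 4.10 in L363 and 4.08 in the array labelled U266 at 209960_at (2.94, SE 0.11, adjusted p = 0.000237), with a B-cell range of 3.97 to 4.55. It was called at 4 of 5 probe sets, and the fifth gave 0.98. IL6ST, the signalling chain gp130 of the IL6 receptor, was called at all 5 probe sets. At 212196_at it read 8.62 in LP1, 5.82 in L363, 5.47 in the array labelled U266 and 4.44 to 4.69 in the B-cell arrays (2.98, SE 0.11, adjusted p = 0.000237). IL6R, the ligand-binding chain, read 9.15, 6.68 and 5.85 against 4.52 to 4.86 in the B-cell arrays (2.88, SE 0.13, adjusted p = 0.000443), and both of its probe sets were called. SOCS2, a feedback inhibitor of cytokine receptors, read 11.08, 7.56 and 7.48 against 5.28 to 5.56 (3.55, SE 0.13, adjusted p = 0.000233). For IL6ST, IL6R and SOCS2 the myeloma lines all exceeded the B-cell arrays, and LP1 exceeded the other 2 lines. PIM1, a kinase induced by STAT factors, read 9.09, 7.63 and 7.67, all inside the B-cell range of 7.57 to 9.48 (1.44, SE 0.11). Of 20 measured IL6 receptor and JAK-STAT genes, 5 were called higher and 0 lower (25% called against 5.05% of all genes), with a list median of 0.07. The 5 higher and 0 lower also held against L363 alone and against the array labelled U266 alone.

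The other genes with agreeing probe sets higher in LP1 had varied roles. ADD3, an adducin of the spectrin skeleton, was called at 4 of 4 probe sets, with LP1 at 11.48, L363 at 8.83 and the array labelled U266 at 8.29 at 201753_s_at (2.92, SE 0.20). MARCKS, an actin-binding substrate of protein kinase C, read 8.81 in LP1, 4.64 in L363 and 4.57 in the array labelled U266 at 201669_s_at (4.21, SE 0.40), while the B-cell arrays ranged from 4.42 to 7.54. APP, the amyloid precursor protein, read 7.66, 3.92 and 4.31 at 200602_at (3.55, SE 0.12), and CALML4, a calmodulin-like protein, 10.72, 6.20 and 6.65 at 221879_at (4.30, SE 0.27). LAPTM4B, a lysosomal membrane protein, was called at 3 of 3 probe sets, with a largest difference of 3.89 (SE 0.23). IFI16, a nuclear DNA sensor, read 8.96 in LP1 and 5.01 and 4.95 in the other 2 at 208965_s_at (3.98, SE 0.37), with B-cell arrays at 8.63 to 10.79. EIF5A, a translation factor, read 12.15, 5.91 and 7.13 at 201123_s_at, with B-cell arrays at 9.90 to 12.48 (5.63, SE 0.67, adjusted p = 0.00865). For IFI16 and EIF5A, LP1 read like the B-cell arrays or near them, and L363 and the array labelled U266 were the low ones. The remaining genes of this group were LITAF, TRIM44, HDGFL3 and ASF1A, with largest differences of 2.41, 2.55, 2.85 and 2.63. ASF1A, a histone chaperone, lost its call when a Namalwa or a SU-DHL4 array was left out.

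Among genes with a single probe set, the 8 largest higher differences lay between 3.71 and 4.35. AMPD1, the muscle form of AMP deaminase, read 10.37 in LP1, 6.29 in L363, 6.17 in the array labelled U266 and 5.36 to 5.65 in the B-cell arrays. RELN, the secreted protein reelin, read 9.43, 5.91 and 5.54 against 5.26 to 5.60, and BTBD3 8.42, 4.35 and 4.32 against 4.25 to 4.44. For these 3 genes LP1 stood apart from all 8 other arrays. UCHL1, a ubiquitin hydrolase, read 11.63, 7.40 and 7.78, and the B-cell arrays spanned 6.83 to 12.29, so LP1 was not outside the range of lymphoma lines. AUTS2, EVI2A, STEAP1 and MAGED1 completed this group, and AUTS2 separated the 2 reference arrays as well, at 5.05 in L363 and 7.81 in the array labelled U266.

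**Figure D2:**
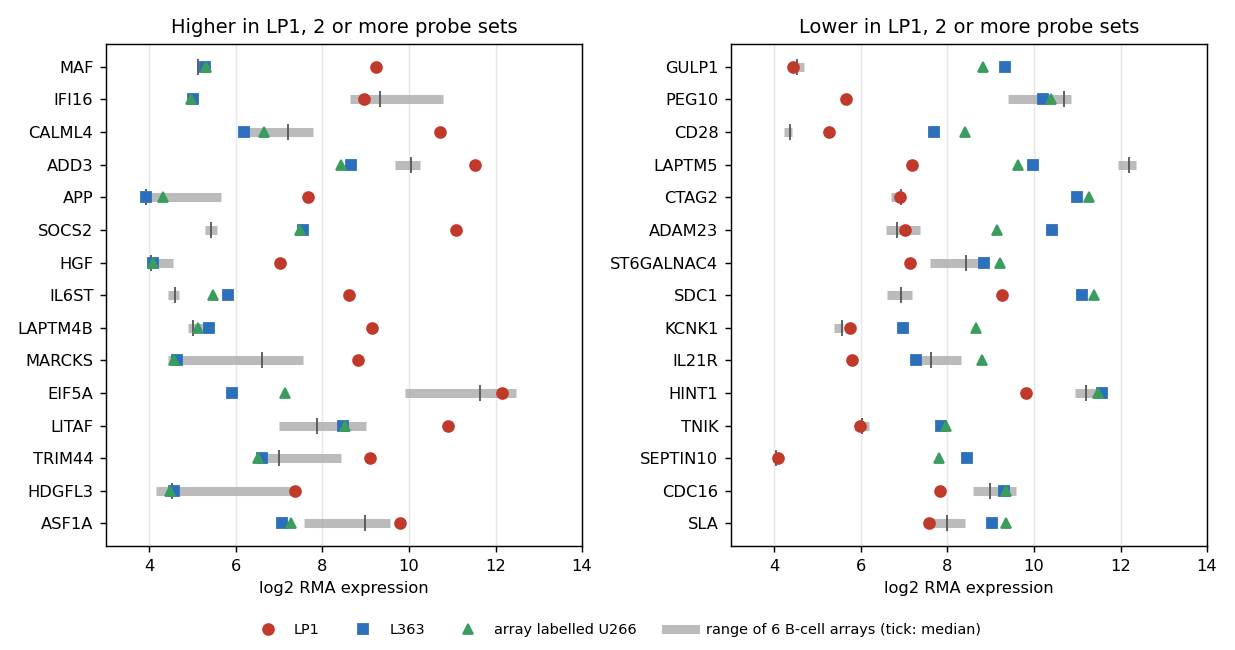
Expression levels (log2 RMA, horizontal axis) of the 15 genes per direction with agreeing probe sets, at each gene's probe set with the largest difference: circles are LP1, squares L363, triangles the array labelled U266, and grey bars the range of the 6 B-cell arrays with a tick at the median. LP1 lies apart from both reference arrays in every gene shown, for instance at 9.23 against 5.29 and 5.30 for MAF, while its place relative to the B-cell range varies from gene to gene.

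The largest difference of any named gene was a lower one. COX7A2, a subunit of cytochrome c oxidase in the respiratory chain, read 5.24 in LP1, 11.39 in L363, 11.43 in the array labelled U266 and 10.97 to 11.67 in the B-cell arrays (-6.17, SE 0.21, adjusted p = 0.000192). LP1 alone was low, at the 1 probe set annotated to this gene alone. Of 29 measured oxidative phosphorylation genes, 3 were called lower and 0 higher (10.3% called against 5.05% of all genes), with a median of -0.07. The other 2 were COX5B (-1.12 at 213735_s_at) and ATP5MC3 (-1.01 at 207508_at), and both of these calls were lost against L363 alone.

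Genes lower in LP1 at several probe sets included surface receptors of plasma cells and lymphocytes. GULP1, an adaptor for engulfment of dying cells, read 4.43 in LP1, 9.34 in L363 and 8.83 in the array labelled U266 at 204235_s_at (-4.65, SE 0.12, adjusted p = 0.000127), and LP1 was inside the B-cell range of 4.38 to 4.69. PEG10, an imprinted gene derived from a retrotransposon, read 5.67, 10.21 and 10.39 at 212094_at (-4.63, SE 0.13), and the B-cell arrays read 9.41 to 10.86, so LP1 was the low array. CD28, a costimulatory receptor of T cells that some myeloma cells carry, read 5.26, 7.69 and 8.41 at 206545_at (-2.79, SE 0.11, adjusted p = 0.000237), and was called at 3 of 3 probe sets. SDC1, which encodes the plasma cell marker syndecan-1 (CD138), read 9.26, 11.11 and 11.38 at 201287_s_at (-1.98, SE 0.17, adjusted p = 0.00284). LP1 still exceeded the B-cell SDC1 range of 6.60 to 7.18. IL21R, the interleukin 21 receptor, read 5.80, 7.26 and 8.79 (-2.23, SE 0.21), and LAPTM5, a lysosomal protein of blood cells, 7.18, 9.98 and 9.64 (-2.63, SE 0.13) against 11.94 to 12.36 in the B-cell arrays. CD53, a leukocyte tetraspanin with a single probe set, read 6.87 in LP1 and 11.24 and 10.91 in the other 2, with the B-cell arrays at 10.09 to 11.63 (-4.20, SE 0.36). ADAM23, KCNK1, TNIK, SEPTIN10 and SLA were also called lower at 2 probe sets each, and CDC16 and HINT1 at 3 each. ST6GALNAC4 was called at 1 of its 2. QPCT, FXYD5 and LAMP5 also had a single probe set each. QPCT read 4.79, 10.61 and 8.55, and FXYD5 and LAMP5 gave -3.67 and -3.24. Of 21 measured plasma cell genes, 1 was called higher (CD38) and 2 lower (SDC1 and CD28), 14.3% called against 5.05% of all genes, with a median of -0.17. That list gave 2 higher and 4 lower against the array labelled U266 alone, and 2 higher against L363 alone.

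Some cancer-testis antigen genes were lower in LP1 than in the other myeloma lines. These genes are normally restricted to germ cells, lie largely on chromosome X and are often active in tumours. Of 23 measured, 7 were called lower and 0 higher (30.4% called against 5.05% of all genes), with a median of -0.10. MAGEA6 read 4.77 in LP1, 10.07 in L363 and 10.19 in the array labelled U266 (-5.36, SE 0.12, adjusted p = 0.000127). MAGEA12 read 4.64, 9.54 and 9.65 (-4.96, SE 0.15, adjusted p = 0.000148), and MAGEA1 4.86, 9.35 and 9.74 (-4.69, SE 0.10, adjusted p = 0.000127). CTAG2 read 6.90, 10.98 and 11.27 at 215733_x_at (-4.22, SE 0.15) and was called at both of its probe sets. LP1 lay inside or, for MAGEA1, just above the B-cell range, which was 4.51 to 4.79 for MAGEA6, 4.54 to 4.86 for MAGEA12, 4.69 to 4.83 for MAGEA1 and 6.70 to 7.01 for CTAG2. The MAGEA probe sets are of the _x_at type, which may also take signal from near-identical family members, so their 3 differences may not be separate.

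The 250 bases before the annotated starts of MAGEA6 and MAGEA12 are shown because both genes separate LP1 by over 4 log2 units. These stretches were not set against the probe sequences, so they do not tell whether the probe sets share signal. No other pair of genes is shown for comparison, and a link to expression was not tested. The sequences are RefSeq's on GRCh38.p14, at chrX:152769690-152769939 (minus strand) for MAGEA6 and chrX:152733612-152733861 (plus strand, the later of 2 listed starts) for MAGEA12. Capitals mark runs of at least 20 bases present in both.
MAGEA6: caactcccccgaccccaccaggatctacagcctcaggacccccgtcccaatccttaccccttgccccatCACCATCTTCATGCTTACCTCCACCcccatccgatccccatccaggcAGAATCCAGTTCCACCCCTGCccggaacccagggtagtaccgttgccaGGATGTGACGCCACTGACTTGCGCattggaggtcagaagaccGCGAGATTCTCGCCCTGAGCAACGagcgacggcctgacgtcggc
MAGEA12: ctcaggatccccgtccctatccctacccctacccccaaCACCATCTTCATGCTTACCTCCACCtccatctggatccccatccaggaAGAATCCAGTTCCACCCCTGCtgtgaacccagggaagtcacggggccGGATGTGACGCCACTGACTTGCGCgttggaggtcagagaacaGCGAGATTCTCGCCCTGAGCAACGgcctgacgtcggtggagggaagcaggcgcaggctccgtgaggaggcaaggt
The pair shared 4 such runs, 94 bases in all, the longest of 25. The windows held 15 and 13 CG dinucleotides, the bases at which promoter DNA can be methylated, against a median of 11 over 35116 windows of that length. DNA methylation was not analysed here.

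Some genes of MHC class I presentation were higher in LP1. MHC class I molecules show peptides cut by the immunoproteasome and carried by the TAP transporter. Of 14 measured class I and peptide processing genes, 7 were called higher and 0 lower (50% called against 5.05% of all genes), with a median of 0.83. TAP1 read 10.11 in LP1, 8.24 in L363 and 8.81 in the array labelled U266 (1.59, SE 0.14), the immunoproteasome subunit PSMB9 9.75, 8.04 and 8.57 (1.45, SE 0.18), and PSMB8 9.97, 8.21 and 9.21 (1.26, SE 0.19, a call lost against the array labelled U266 alone). HLA-G was called at 3 of 4 probe sets, which are of the _x_at type and may take signal from other class I genes. The count of 7 became 4 against the array labelled U266 alone, and also 4 without a Namalwa array. Of 28 measured interferon response genes, 1 was called higher (IFI16) and 1 lower (BST2, a call lost against L363 alone and without a SU-DHL4 array). That was 7.14% called, near the 5.05% of all genes, and the median was -0.10.

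For MHC class II genes, which present peptides to helper T cells, the result depended on the reference array. Of 14 measured, 5 were called higher and 1 lower (42.9% called against 5.05% of all genes), with a median of 0.70. HLA-DPA1 read 11.88 in LP1, 8.42 in L363 and 11.69 in the array labelled U266 at 211990_at, and HLA-DRA 12.39, 9.67 and 11.60 at 208894_at. HLA-DPB1 read 10.83, 8.43 and 9.99, and its call was also lost without a Namalwa array. For these 3 genes L363 was the low array, and their calls were lost against the array labelled U266 alone, where the list gave 0 higher and a median of 0.05, against 8 higher and a median of 1.36 with L363 alone. HLA-DQA1 split by probe set: 203290_at read 9.86 in LP1, 6.58 in L363 and 6.55 in the array labelled U266, and 213831_at read 5.51, 6.60 and 7.86. The B-cell arrays read 6.34 to 6.61 at the first and 8.20 to 9.79 at the second, so no single direction can be given for this gene, whose alleles differ widely in sequence.

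Of 26 measured TGF-beta and BMP genes, 4 were called higher and 1 lower (19.2% called against 5.05% of all genes), with a median of 0.02. SMAD1, the BMP signal transducer, read 9.49 in LP1, 5.74 in L363 and 7.22 in the array labelled U266 (3.0, SE 0.25, adjusted p = 0.00272). At that probe set, 210993_s_at, the B-cell arrays read 5.51 to 10.27, so LP1 lay inside their range. The other SMAD1 probe set, 208015_at, gave 0.14 and was not called. SMAD3, the TGF-beta counterpart of SMAD1, was called at 3 of 4 probe sets, and the call at 218284_at (1.52, SE 0.22) was lost without a Namalwa or a SU-DHL4 array. ID1, an inhibitor of helix-loop-helix factors and a BMP target, read 7.53, 5.38 and 5.57 (2.06, SE 0.22), whereas the related ID3 read 6.75, 9.40 and 7.37 (-1.64, SE 0.18) and lost its call against the array labelled U266 alone. The higher count became 2 when a Namalwa or a SU-DHL4 array was left out.

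Of 27 measured adhesion molecules, 3 were called higher and 3 lower, and of 21 integrins, 3 higher and 1 lower, with medians of -0.11 and -0.12. These were 22.2% and 19% called against 5.05% of all genes. CD44, a hyaluronan receptor, was called at 6 of 8 probe sets. At 212063_at it read 8.29 in LP1, 4.25 in L363, 4.60 in the array labelled U266 and 4.04 to 4.30 in the B-cell arrays (3.87, SE 0.12, adjusted p = 0.000148). CADM1, a homophilic adhesion molecule, was called at 3 of 3 probe sets. At 209030_s_at it read 10.52, 8.42 and 9.65 (1.49, SE 0.12), and this call was lost against the array labelled U266 alone. LGALS3, the lectin galectin-3, read 7.48, 8.76 and 10.15 (-1.97, SE 0.11). ICAM3 read 5.36, 8.87 and 5.70, so L363 was the high one of the myeloma arrays, and the call was lost against the array labelled U266 alone. ITGA4, the alpha chain of the VLA-4 integrin, was called lower at 1 of 3 probe sets (-1.17, SE 0.19), with the other 2 at -1.03 and -1.02 and an adjusted p above the threshold, and the call was lost without a Namalwa or a SU-DHL4 array. Among 28 actin genes, 2 were called higher and 3 lower (17.9% called). PFN2, an actin monomer-binding profilin, read 9.61, 6.97 and 7.09 (2.58, SE 0.20), and MARCKSL1 11.65, 10.04 and 10.60 (1.33, SE 0.13).

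**Figure D3:**
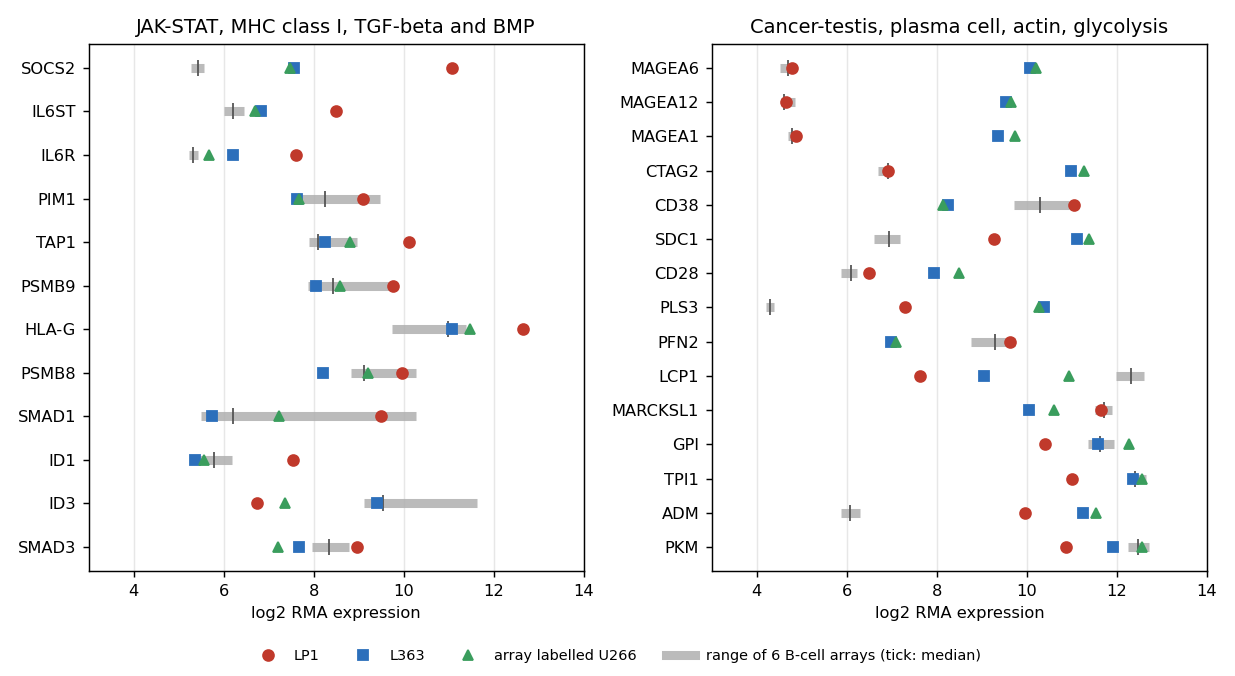
Expression levels (log2 RMA, horizontal axis) of up to 4 called members of 7 gene lists, each at its probe set with the highest mean, with circles for LP1, squares for L363, triangles for the array labelled U266 and grey bars for the range of the 6 B-cell arrays. The 4 cancer-testis genes show LP1 at the B-cell level and both reference arrays far above it, and the 4 JAK-STAT genes show LP1 above both reference arrays.

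Of 20 measured cholesterol and fatty acid synthesis genes, 3 were called higher and 0 lower (15% called against 5.05% of all genes), with a median of 0.40. HMGCS1, which makes the precursor of mevalonate, read 9.86 in LP1, 7.69 in L363 and 7.64 in the array labelled U266 (2.20, SE 0.13). INSIG1 gave 1.48 (SE 0.15, 201627_s_at) and SQLE 1.11 (SE 0.15, 209218_at). The SQLE call was lost against the array labelled U266 alone and without a Namalwa array. Of 28 measured glycolysis and hypoxia response genes, 4 were called lower and 0 higher (14.3% called against 5.05% of all genes), with a median of -0.13. GPI, the isomerase of the second glycolytic step, read 10.39, 11.57 and 12.27 (-1.52, SE 0.15), and TPI1 read 10.73, 11.88 and 12.16 at 213011_s_at (-1.29, SE 0.11). LP1 lay below the B-cell range for both, 11.37 to 11.94 for GPI and 12.08 to 12.28 for TPI1. PKM (-1.36) lost its call against L363 alone and without a SU-DHL4 array.

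DUSP5, a phosphatase that limits ERK, read 7.31 in LP1, 9.52 in L363 and 10.18 in the array labelled U266 (-2.55, SE 0.13). DUSP5 and SPRED2 (-2.48) were the 2 called of 18 MAPK feedback genes, both lower (11.1% called against 5.05% of all genes). SPRED2 lost its call against L363 alone and without a Namalwa or a SU-DHL4 array. Of 23 measured NF-kB pathway and target genes, 1 was called lower (MAP3K14) and 1 higher (REL), 8.7% called against 5.05% of all genes. MAP3K14, the kinase of the alternative NF-kB pathway, read 7.08, 10.18 and 9.90 (-2.96, SE 0.17, adjusted p = 0.000913). LP1 alone of the myeloma lines lay in its B-cell range of 6.94 to 7.33. REL gave 1.69 at 206036_s_at and 0.003 at 206035_at. Its call was lost against the array labelled U266 alone and without a Namalwa array. EIF2AK3 (PERK), a sensor kinase of the unfolded protein response, was the 1 called of 25 genes of that response (4%), at 9.94, 7.81 and 8.21 (1.93, SE 0.12). Cell division genes gave 1 call among 38 (2.63%), CENPF (-1.12, SE 0.21), which was lost against L363 alone and without a Namalwa or a SU-DHL4 array. The BCL2 family, ribosomal proteins and metallothioneins gave 0. Differences ran from -0.60 to 1.83 in the BCL2 family, -0.37 to 0.43 in ribosomal proteins and -0.62 to -0.17 in metallothioneins. The BCL2 family thus held a difference past 2-fold that missed the adjusted p, and 0 calls does not mean no difference.

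Most called probe sets also put LP1 outside the range of the lymphoma lines. Calls were made on LP1's own difference and on the spread between the same B-cell duplicates. Higher shares among them than among all probe sets are therefore partly built in, and the counts describe the calls only. Of the 644 probe sets called higher, LP1 was above the range of the 6 B-cell arrays at 451 (70%), inside it at 145 (22.5%) and below it at 48 (7.45%), where 20.6% of all probe sets were above. Of the 362 called lower, it was below that range at 208 (57.5%), inside at 102 (28.2%) and above at 52 (14.4%), where 19.9% of all probe sets were below. In 158 of the higher probe sets both reference arrays lay inside the B-cell range and LP1 above it, as for BTBD3. In 101 LP1 was inside and both references below, as for EIF5A. In 87 of the lower ones LP1 was inside and both references above, as for MAGEA6.

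The shares called differed between chromosomes. Over the 6999 genes above the median level, 3.51% were called higher and 2.7% lower, and chromosome positions are the order of genes in RefSeq's GRCh38.p14. On chromosome 13, 13 of 103 genes (12.6%) were called lower and 1 higher, with a median of -0.29, and CDC16 is one of them. On chromosome 4, 19 of 189 (10.1%) were called higher, among them CD38, and on chromosome 6, 37 of 376 (9.84%), which include the MHC genes. On chromosome 19, 31 of 507 (6.11%) were called lower with a median of -0.25, and on chromosome 1, 39 of 719 (5.42%).

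**Figure D4:**
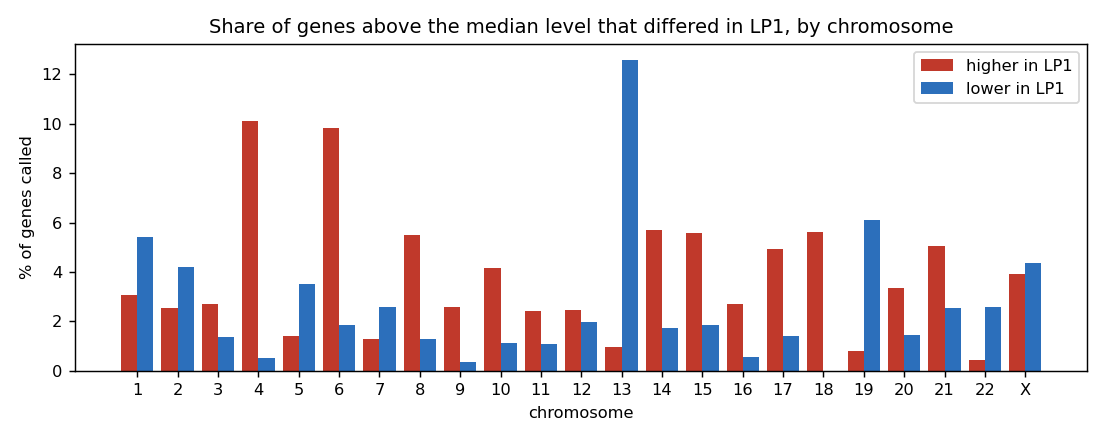
Percent of genes called higher and lower in LP1 on each chromosome, over genes above the median level. Chromosome 13 has 12.6% called lower, and chromosomes 4 and 6 have 10.1% and 9.84% called higher, against 3.51% higher and 2.7% lower over all.

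Neighbouring genes moved together in some stretches. In runs of 25 consecutive genes the median difference had a median of -0.03 over 6443 overlapping runs, and 5% of them lay below -0.37 and 5% above 0.35. The lowest run was on chromosome 1, from UTP25 to WDR26, with a median of -1.06 and 11 of 25 genes called lower, followed by RNF187 to DESI2 on the same chromosome at -0.85 with 8 lower. The run from UTP25 to WDR26 was at -0.93 against the B-cell median, and the mean of the reference arrays at 0.04. A run on the same chromosome nearer its middle, from MR1 to KIF21B, went the other way, at 0.63 with 8 genes called higher. The highest run was on chromosome 14, from NDUFB1 to RCOR1, at 0.84 with 8 called higher. There the reference arrays stood at -1.18 against the B-cell median, and LP1 at -0.15. A run on chromosome 4, from OTUD4 to IRF2, gave 0.71 with 9 higher, among them SMAD1. These runs were picked as the most extreme and carry no test, and DNA copy number was not analysed here.

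**Figure D5:**
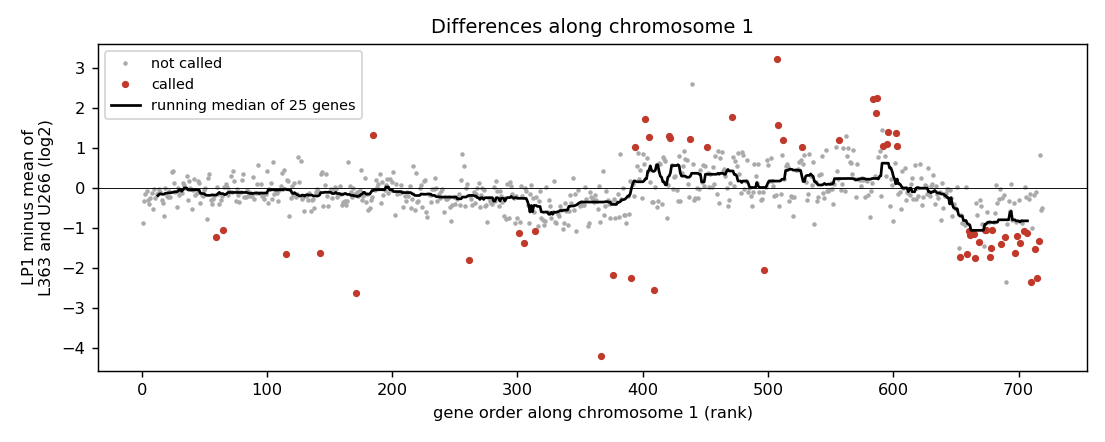
Difference (log2, LP1 minus the mean of L363 and the array labelled U266, vertical axis) of 719 genes in their order along chromosome 1 (horizontal axis), with called genes in red, the others in grey and the running median over 25 genes as a line. The line is at 0.63 in the run from MR1 to KIF21B and reaches -1.06 in the run from UTP25 to WDR26 near the end of the order.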

How the data were processed

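Total RNA of each sample was hybridised to Affymetrix human arrays. The authors normalized the arrays by RMA, per the submitters' processing notes, and the deposited values are log2 levels, with no detection call. The RMA version is not given in the sources used here, and the authors' table of statistics was not used. R 4.3.3 and limma 3.58.1 (lmFit, eBayes) were run on 22215 probe sets of 9 arrays with line as a 6-level factor, after leaving out 68 controls. Of the probe sets, 19065 had 1 symbol in the platform annotation, 1043 several and 2107 none. Only those with 1 symbol counted towards the probe sets of a gene. For lists and chromosomes each gene took its probe set with the highest mean over 9 arrays. Percentages called refer to the measured members for lists and to genes above the median level for chromosomes. Those given for all probe sets or all genes refer to all features tested. Tests were two-sided, and the code was tested on simulated data. The number of arrays limits the precision.

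Genes were named by rule: 15 per direction with at least 2 agreeing probe sets, ranked by the second-largest difference, 8 per direction with a single probe set, 4 markers (MAF, FGFR3, CD38, PLS3), and up to 4 called members of each list described. Members and the 44 gene lists were chosen with earlier results of these data known. Alternatives were L363 alone or the array labelled U266 alone as reference, a second quantile normalization, 75th percentile centring, filters on probe set type and level, other thresholds, eBayes with trend and robust, and each B-cell array left out.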

Additional observations from a re-analysis of the deposited data

How the results depend on the processing

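The counts of 644 higher and 362 lower stayed within 1.5 times under either reference array alone, second quantile normalization, 75th percentile centring, the filter on level, and trend and robust eBayes. They fell to 281 and 181 when _x_at and _s_at probe sets were left out, 153 and 75 at a difference of at least 2, and 366 and 214 at an adjusted p under 0.01, and were 1101 and 721 with no minimum difference, each by the construction of the setting. With each B-cell array left out in turn they ranged from 456 to 736 higher and from 260 to 413 lower. Leaving out either array of a line gave the same counts, since the remaining array then adds nothing to the spread. With L363 alone as reference they were 679 and 255, and with the array labelled U266 alone 519 and 437.

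Single genes were followed only through the other references, both renormalizations, trend and robust eBayes, and each B-cell array left out. Of 124 named genes and list members, 36 lost their call in at least 1 of these settings and 0 changed direction. Of the 46 with the largest differences, ASF1A was the 1 that lost its call there. The filters on probe set type and level and the stricter thresholds were not followed gene by gene, and they would remove more calls. For instance, IFI16 and EIF5A have only _x_at and _s_at probe sets, and TRIM44 had a limma adjusted p of 0.0111 at 217759_at. Calls lost numbered 15 against L363 alone, 17 against the array labelled U266 alone, 19 without a Namalwa array, 15 without a SU-DHL4 array and 0 without a SU-DHL6 array, and the cause was not tested. The 75th percentile centring moved the median over all probe sets from -0.05 to -0.10. No paired analysis was possible because the 3 myeloma arrays are of different lines and no label links them. LP1, L363 and U266 have 1 array each, so their own spread is unmeasured.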

Other observations

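NOTCH and WNT genes held 5 members called higher and 1 lower among 24 measured (25% called against 5.05% of all genes), with a median of 0.00. HEY1, a transcription factor induced by NOTCH, read 9.36 in LP1, 7.36 in L363 and 7.02 in the array labelled U266 at 44783_s_at (2.17, SE 0.12, adjusted p = 0.000763), and both of its probe sets were called. The WNT receptor FZD6 read 8.55, 6.47 and 7.31 (1.66, SE 0.16), and SFRP1, a secreted WNT antagonist, was called at 2 of 3 probe sets, with a largest difference of 1.48 (SE 0.14). The ligand WNT5A was lower, at 5.37, 8.68 and 7.27 (-2.61, SE 0.22, adjusted p = 0.00302), and the B-cell arrays read 5.79 to 7.45.

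Of 37 measured protease and matrix genes, 2 were called higher and 2 lower (10.8% called against 5.05% of all genes). SPARC, a collagen-binding matrix protein, read 4.78 in LP1, 8.72 in L363 and 8.49 in the array labelled U266 (-3.83, SE 0.12, adjusted p = 0.00015), with LP1 inside the B-cell range of 4.63 to 4.95. LAMC1, a laminin chain, read 9.01, 6.99 and 6.58 at 200771_at (2.23, SE 0.28). Of 30 cAMP and G-protein signalling genes, 2 were called higher and 1 lower (10% called). PDE3B, a phosphodiesterase, was called at 3 of 3 probe sets, with a largest difference of 1.59 (SE 0.12), and PDE4A, another, was lower at 1 of 4 (-2.30, SE 0.14). CEBPA, a myeloid transcription factor, read 7.03, 9.08 and 9.45 (-2.24, SE 0.12), and LP1 lay inside the B-cell range of 6.96 to 7.48.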
